A study of Mus musculus with 12 samples.

Results

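The members described here are 38 known mouse imprinted genes outside the chromosome 12 Dlk1-Dio3 domain, taken as the rows of the count table with their gene symbols, out of 24495 genes. They fall into 17 domains or single loci. Imprinted genes are expressed mainly from the allele inherited from one parent. The allele is chosen by DNA methylation set down in the germline at an imprinting control region, and these genes lie in clusters in which neighbours of opposite parental origin are often controlled by one such region. Many are known for setting fetal and placental growth. By common knowledge 21 are grouped as expressed from the paternal allele and 14 from the maternal allele. Of the rest, 2 (Gnas and H13) depend on the transcript and 1 (Grb10) changes its parental allele with the tissue. Ube3a is grouped as maternal although it uses both alleles in most cells other than neurons. For the other members too, the group does not mean imprinting in every tissue or in the cells used here. The reads were not assigned to alleles, so every value is the sum of both alleles.

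RNA-seq of poly(A) RNA was made from CCE-Nanog-GFP mouse embryonic stem cells (mESCs), a line with a green fluorescent protein reporter of the pluripotency gene Nanog, from which GFP-positive cells had been sorted. All cells carried a lentiviral short hairpin RNA after puromycin selection, either a scramble hairpin (shSC, labelled scr in the sample titles) or a hairpin against Ctsl, the gene of the protease cathepsin L (shCTSL, labelled KD). Each line was taken undifferentiated with LIF (Day 0) and as embryoid bodies (EBs) after 2 and 4 days without LIF and with all-trans retinoic acid under rotation (Day 2, Day 4), with 2 replicates in each of 6 groups and 12 libraries in all. A single hairpin and line per condition was sequenced, and the p-values measure only the spread between these samples. The comparisons ask how the members change during differentiation and whether the knockdown line differs from the control line on each day.

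The libraries held 11171111 to 27155553 counted reads. Levels are given as normalized CPM, the reads of a gene per 1000000 reads after TMM scaling, for replicate 1 and then replicate 2. Ctsl itself was at 137 and 147 CPM in shSC on Day 0 against 39.2 and 37.5 CPM in shCTSL, and on Day 4 at 484 and 423 against 257 and 253 CPM, so the knockdown line held less Ctsl RNA on both days while Ctsl rose in both lines. The shCTSL Day 2 libraries stood apart. The SD of the log2 ratio of the replicates over genes was 0.604 there and 0.178 to 0.269 in the other groups, and Rn45s, a ribosomal RNA gene, took 3.43% of the reads of replicate 1 against 0.170 to 1.43% elsewhere. In replicate 1 long transcripts were low: the median log2 ratio of replicate 1 to replicate 2 went from 0.70 for genes under 1 kb of exonic length to -0.61 for genes over 8 kb. Differences between the lines on Day 0 and Day 4 are therefore given from the fit of all 12 libraries and from a fit without these 2.

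Most members tested were induced when mESCs became EBs. The members were chosen with earlier results of these data known, so their shares describe this list and not imprinted genes at large. Of the 38 members 36 passed the filter on low counts, and Snrpn and Rasgrf1 did not. Calls needed an adjusted p below 0.05 over the 15532 genes tested and a fold change of 1.5 or more, which is 0.585 in log2. On Day 4 against Day 0 in shSC, 21 of 36 members were higher and 3 were lower, where 32.1% of all genes tested were higher and 28.7% lower. In shCTSL 21 were higher and 4 lower, with 32.3% and 27.6% of all genes. The median log2 fold change of the 36 members was 1.29 in shSC and 1.44 in shCTSL, beside 0.029 and 0.061 over all genes tested. Much of this was in place on Day 2, when 19 members were higher and 4 lower in shSC (29.3% and 25.3% of all genes) and 21 higher and 3 lower in shCTSL (30.9% and 24.6% of all genes). From Day 2 to Day 4, 9 members were higher and 4 lower in shSC (11.4% and 12.4% of all genes), and 12 were higher and 5 lower in shCTSL (11% and 12.4% of all genes). In bulk RNA, fewer cells of a type and less RNA per cell cannot be told apart, so a rise here can be either more expressing cells or more RNA in each.

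By parental origin, 14 of the 19 paternally expressed members that were tested rose between Day 0 and Day 4 in shSC and the same number did in shCTSL. Of the 14 maternally expressed members tested, 5 rose and 3 fell in shSC, and 5 rose and 3 fell in shCTSL. Over all genes tested 32.1% rose and 28.7% fell in shSC, and 32.3% rose and 27.6% fell in shCTSL. The median log2 fold change in shSC was 2.19 for the paternal group and 0.36 for the maternal group, and in shCTSL it was 1.89 and 0.19. The groups follow known origin, which need not hold in these cells, and the maternal group includes Ube3a. Which alleles the members used in these cells was not measured. Both lines called 20 members higher and 2, Phlda2 and Ascl2, lower. The share of all genes called alike in both lines was not counted, so these numbers only describe the members. Slc22a18 and Mkrn3 were called in shSC alone and Grb10, Ddc and Ube3a in shCTSL alone, which does not show that the lines differ. The 9 members called in neither line on Day 4 against Day 0 were Kcnq1ot1, Kcnq1, Cd81, Tssc4, Ppp1r9a, Copg2, Peg12, Zrsr1 and Impact.

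**Figure D1:**
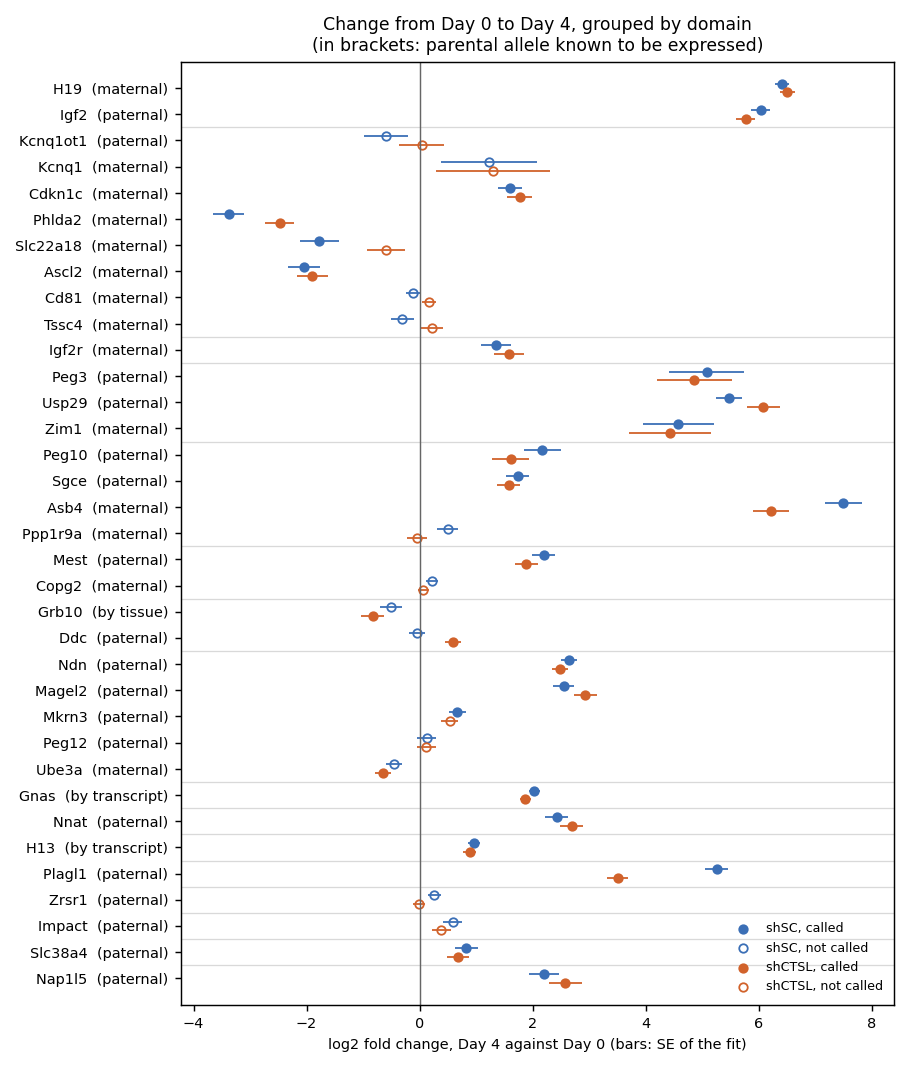
Log2 fold change of each member from Day 0 to Day 4 (x axis) in shSC (blue) and shCTSL (orange), with bars of 1 SE from the fit and filled points for called changes. Airn is left out because it had 0 or 1 read per library on Day 0, and Phlda2 and Ascl2 lie furthest to the left in both lines while Asb4, H19, Igf2 and Usp29 lie furthest to the right in both.

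The summed reads of the members grew to a larger share of all normalized reads, and a few members supplied much of them. The 38 members together took 0.298% and 0.293% of the normalized reads in shSC on Day 0, 0.860% and 0.884% on Day 2 and 1.36% and 1.31% on Day 4. In shCTSL they took 0.273% and 0.282%, then 0.486% and 0.749%, then 1.13% and 1.02%. The 2 libraries of shCTSL Day 2 differed most, with replicate 1 the lower. H19 alone supplied 0.964% and 1.02% of the members' reads in shSC on Day 0 and 17.6% and 19.7% on Day 4. With Igf2 added, these shares were 1.57% and 1.68% on Day 0 and 26.0% and 29.7% on Day 4. In the same line Peg3 went from a mean of 74.1 to 2507 CPM and Peg10 from 480 to 2156 CPM. All members together were at 2983 and 2933 CPM on Day 0 and at 13629 and 13111 CPM on Day 4. Levels of different members were compared per kilobase of exonic length. On that scale Cd81 led in shSC on Day 0 with 97.7 CPM per kb, followed by Slc38a4 with 88.3 and Phlda2 with 87.96. On Day 4 H19 led with 1049.8 CPM per kb, followed by Peg10 with 324, Mest with 258, Igf2 with 224 and Peg3 with 188.

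H19 and Igf2 rose at both steps in both lines. They lie next to each other on chromosome 7 (mm9 chr7:149761434-149764048 and chr7:149836673-149852721, both on the minus strand) and share enhancers downstream of H19. On the maternal allele CTCF bound at the control region keeps these enhancers with H19, a long noncoding RNA, and on the paternal allele they serve Igf2, which encodes a fetal growth factor. In shSC H19 was at 28.7 and 29.8 CPM on Day 0, 844 and 919 on Day 2 and 2403 and 2577 on Day 4. In shCTSL it was at 25.7 and 28.8 CPM on Day 0, 659.7 and 619 on Day 2 and 2497 and 2439 on Day 4. The groups of different days did not overlap in either line, and the log2 fold change from Day 0 to Day 4 was 6.41 ± 0.13 (SE with an adjusted p of 1.5e-09) in shSC and 6.505 ± 0.13 (SE with an adjusted p of 1.7e-09) in shCTSL. Igf2 in shSC went through 17.99 and 19.5 CPM on Day 0, 303 and 309 on Day 2 and 1142 and 1316 on Day 4. In shCTSL it went through 18.9 and 18.6 CPM on Day 0, 130.2 and 173 on Day 2 and 1041 and 1009 on Day 4. Its log2 fold change from Day 0 to Day 4 was 6.04 ± 0.17 (SE with an adjusted p of 3.6e-09) in shSC and 5.77 ± 0.17 (SE with an adjusted p of 5.0e-09) in shCTSL. Both genes rose at each step, H19 by 4.91 to Day 2 and by a further 1.498 to Day 4 on the log2 scale in shSC, and Igf2 by 4.03 and 2.004. H19 and Igf2, known as genes of opposite parental origin, thus moved the same way in the sum of both alleles.

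**Figure D2:**
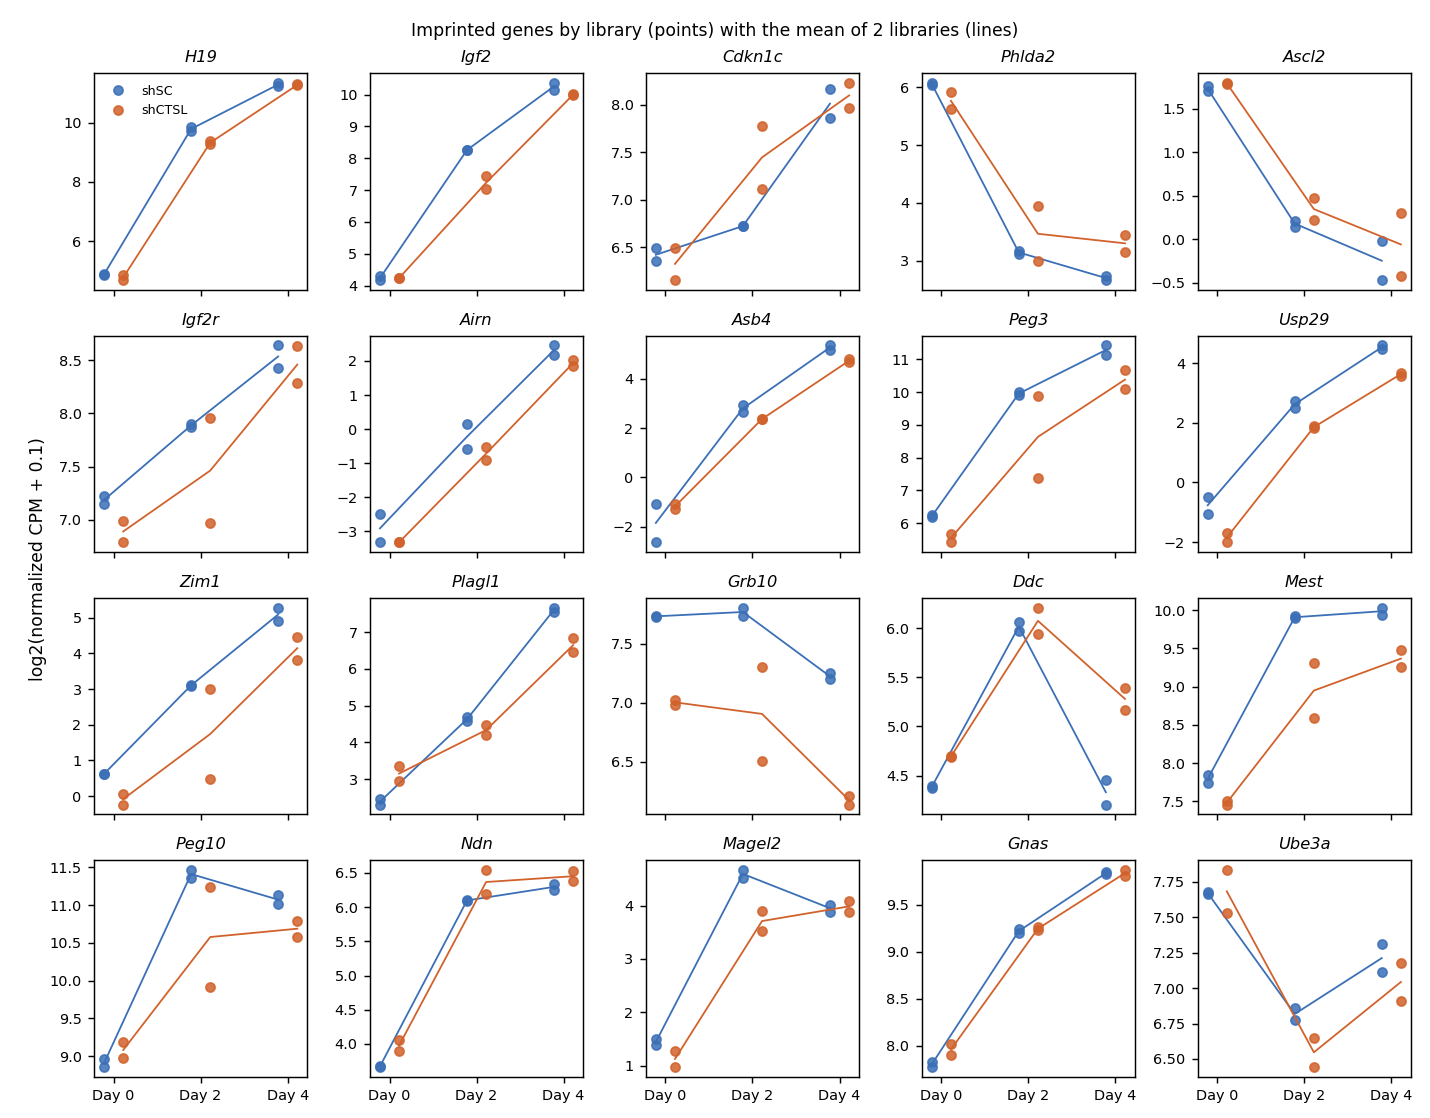
Normalized CPM (y axis, log2 of CPM plus 0.1) of 20 members on Day 0, 2 and 4, with 1 point per library and lines through the means of 2 libraries of shSC (blue) and shCTSL (orange). H19, Igf2, Asb4, Airn, the Peg3 domain and Plagl1 climb over both intervals, Phlda2 and Ascl2 drop by Day 2, Ddc peaks on Day 2, and in shCTSL on Day 2 the replicates of Peg3, Zim1, Peg10, Igf2r and Grb10 lie far apart.

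The neighbouring Kcnq1 domain held members that rose, fell and stayed within the fold threshold. Its control region is the promoter of Kcnq1ot1, a long noncoding RNA made from the paternal allele and known to silence the domain's other genes on that allele. Kcnq1ot1 was at 27.8 and 20.4 CPM on Day 0, 9.33 and 13.9 on Day 2 and 17.5 and 14.4 on Day 4 in shSC. In shCTSL it was at 14.3 and 18.96 CPM on Day 0, 24.3 and 9.07 on Day 2 and 15.05 and 18.9 on Day 4. It fell between Day 0 and Day 2 in shSC, with a log2 fold change of -1.05 ± 0.39 (SE with an adjusted p of 0.037), and in shCTSL the corresponding value was -0.0049 ± 0.40 (SE with an adjusted p of 0.99), where the replicates of Day 2 lay on both sides of the Day 0 libraries. Kcnq1, a potassium channel subunit, was near the limit of detection with 0 to 18 reads per library. It was at 0 and 0.3098 CPM on Day 0, 0.531 and 0.657 on Day 2 and 0.354 and 0.485 on Day 4 in shSC. The shCTSL values were 0.0746 and 0.211 CPM on Day 0, 0.615 and 0.766 on Day 2 and 0.162 and 0.492 on Day 4. Over both shCTSL libraries 3 reads on Day 0 stood against 28 on Day 2, a ratio of 5.38 with a 95% exact interval of 1.66 to 27.6 from counting error alone, and edgeR called this rise.

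Cdkn1c (p57, an inhibitor of cyclin-dependent kinases) rose in both lines, with 81.5 and 89.9 CPM on Day 0, 106 and 105 on Day 2 and 232 and 288 on Day 4 in shSC. In shCTSL it was at 90.1 and 71.2 CPM on Day 0, 220.2 and 138 on Day 2 and 251 and 300.3 on Day 4. Its log2 fold change from Day 0 to Day 4 was 1.599 ± 0.22 (SE with an adjusted p of 8.4e-05) in shSC and 1.77 ± 0.22 (SE with an adjusted p of 4.4e-05) in shCTSL, and the shSC libraries of Day 4 lay above all those of Day 0 and Day 2. Phlda2, which limits growth of the placenta, fell the most of all members. It was at 67.2 and 65.9 CPM on Day 0, 8.56 and 8.89 on Day 2 and 6.54 and 6.24 on Day 4 in shSC. It was at 60.1 and 49.2 CPM on Day 0, 15.3 and 7.83 on Day 2 and 8.77 and 10.8 on Day 4 in shCTSL. Every EB library lay below every mESC library, with a log2 fold change from Day 0 to Day 4 of -3.38 ± 0.27 (SE with an adjusted p of 2.0e-06) in shSC and -2.48 ± 0.26 (SE with an adjusted p of 1.4e-05) in shCTSL. Ascl2, a transcription factor needed for the spongiotrophoblast of the placenta, fell as well but from a low level. Its values were 3.28 and 3.16 CPM on Day 0, 1.06 and 1.01 on Day 2 and 0.884 and 0.624 on Day 4 in shSC. They were 3.36 and 3.37 CPM on Day 0, 1.29 and 1.06 on Day 2 and 0.6495 and 1.13 on Day 4 in shCTSL. Again no EB library reached a Day 0 library, and the Day 4 against Day 0 values were -2.04 ± 0.28 (SE with an adjusted p of 1.1e-04) and -1.897 ± 0.28 (SE with an adjusted p of 1.7e-04).

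Slc22a18, an organic cation transporter, was at 4.498 and 4.65 CPM on Day 0, 3.82 and 3.24 on Day 2 and 1.503 and 1.11 on Day 4 in shSC. It was at 4.03 and 3.16 CPM on Day 0, 6.58 and 3.92 on Day 2 and 1.73 and 3.05 on Day 4 in shCTSL. It fell late, with a log2 fold change from Day 2 to Day 4 of -1.405 ± 0.34 (SE with an adjusted p of 0.012) in shSC and of -1.11 ± 0.31 (SE with an adjusted p of 0.025) in shCTSL. Cd81, a tetraspanin of the cell surface, and Tssc4 were called in no comparison between days. Cd81 was at 219 and 225 CPM on Day 0, 197 and 186 on Day 2 and 201 and 209 on Day 4 in shSC. It was at 262 and 226 CPM on Day 0, 279.9 and 222 on Day 2 and 274 and 274 on Day 4 in shCTSL. All shCTSL libraries lay above the shSC libraries of the same day. Tssc4 was at 38.4 and 40.5 CPM on Day 0, 35.5 and 33.6 on Day 2 and 29.1 and 34.7 on Day 4 in shSC. It was at 40.9 and 35.2 CPM on Day 0, 65.1 and 39.5 on Day 2 and 42.9 and 45.4 on Day 4 in shCTSL. Tssc4 shares 220 exonic bases (12.5% of its length) with Trpm5 on the other strand, and the sources used here do not give the strand setting of the counting.

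Igf2r and Airn overlap on chromosome 17 (mm9 chr17:12875272-12962530 minus strand and chr17:12934177-13052988 plus strand). Igf2r encodes the receptor that takes up IGF2 for degradation and carries lysosomal enzymes tagged with mannose 6-phosphate, and Airn is the paternal antisense RNA that silences Igf2r on its own allele. The pair shares no exonic bases in the annotation. Airn was all but absent in mESCs, with 1 and 0 reads in shSC and 0 and 0 in shCTSL on Day 0. In shSC it reached 0.564 and 1.01 CPM on Day 2 and 5.39 and 4.44 CPM on Day 4. In shCTSL it reached 0.431 and 0.596 and 4.01 and 3.49 CPM. Over both libraries 186 reads on Day 4 stood against 1 on Day 0 in shSC, a ratio of 147 with a 95% exact interval of 26.04 to 5832, and in shCTSL the Day 4 level was at least 28.5-fold higher than a floor of 3 reads over the Day 0 libraries. These bounds cover counting error only. Airn was called higher in both lines on both days. Igf2r rose with it. It was at 149 and 142 CPM on Day 0, 235 and 238 on Day 2 and 399 and 345 on Day 4 in shSC. It was at 110.3 and 127 CPM on Day 0, 125 and 249 on Day 2 and 398 and 311 on Day 4 in shCTSL. The Day 4 libraries lay above all others of their line, and the log2 fold change from Day 0 to Day 4 was 1.35 ± 0.26 (SE with an adjusted p of 0.0010) in shSC and 1.58 ± 0.26 (SE with an adjusted p of 3.9e-04) in shCTSL.

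All 3 members of the Peg3 domain on proximal chromosome 7 rose steeply. Peg3 (mm9 chr7:6656603-6683132) encodes a large zinc finger protein, Usp29 a ubiquitin-specific protease and Zim1, of opposite parental origin, another zinc finger protein. Peg3 was at 75.6 and 72.5 CPM on Day 0, 1034 and 954 on Day 2 and 2751 and 2264 on Day 4 in shSC. It was at 42.7 and 50.98 CPM on Day 0, 168 and 942 on Day 2 and 1624 and 1096 on Day 4 in shCTSL, where replicate 1 of Day 2 lay far below replicate 2. Usp29 started from 2 to 10 reads per library on Day 0 and went through 0.381 and 0.6196 CPM on Day 0, 6.57 and 5.56 on Day 2 and 23.996 and 21.98 on Day 4 in shSC. In shCTSL it went through 0.149 and 0.211 CPM on Day 0, 3.45 and 3.58 on Day 2 and 11.9 and 12.7 on Day 4. Zim1 was at 1.45 and 1.43 CPM on Day 0, 8.43 and 8.58 on Day 2 and 38.9 and 29.8 on Day 4 in shSC. It was at 0.746 and 0.948 CPM on Day 0, 1.29 and 7.92 on Day 2 and 22.03 and 14.1 on Day 4 in shCTSL. In each gene and line the libraries of Day 4 lay above those of Day 0 without overlap. The log2 fold change from Day 0 to Day 4 was 5.08 ± 0.66 (SE with an adjusted p of 6.5e-05) in shSC and 4.86 ± 0.66 (SE with an adjusted p of 8.9e-05) in shCTSL for Peg3. It was 5.47 ± 0.23 (SE with an adjusted p of 2.7e-08) and 6.08 ± 0.29 (SE with an adjusted p of 7.5e-08) for Usp29. It was 4.58 ± 0.63 (SE with an adjusted p of 9.8e-05) and 4.43 ± 0.72 (SE with an adjusted p of 3.3e-04) for Zim1.

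The Peg10-Sgce domain on chromosome 6 contained Asb4, the member with the largest fitted rise in shSC, which encodes a substrate adaptor of a ubiquitin ligase. Asb4 had 1 to 5 reads per library on Day 0 and was at 0.381 and 0.06196 CPM on Day 0, 7.57 and 6.22 on Day 2 and 36.1 and 40.7 on Day 4 in shSC. It was at 0.373 and 0.316 CPM on Day 0, 5.11 and 5.02 on Day 2 and 27.6 and 25.3 on Day 4 in shCTSL. All EB libraries lay above all mESC libraries, with Day 4 against Day 0 values of 7.49 ± 0.33 (SE with an adjusted p of 3.9e-08) and 6.22 ± 0.32 (SE with an adjusted p of 1.2e-07). Peg10, derived from a retrotransposon and needed for the placenta, rose early. It was at 496 and 463 CPM on Day 0, 2627 and 2828 on Day 2 and 2241 and 2071 on Day 4 in shSC. It was at 501 and 584 CPM on Day 0, 968 and 2413 on Day 2 and 1775 and 1533 on Day 4 in shCTSL. Its rise to Day 2 was 2.51 ± 0.33 (SE with an adjusted p of 9.0e-05) in shSC and 1.64 ± 0.32 (SE with an adjusted p of 0.0012) in shCTSL, and it was not called from Day 2 to Day 4, with values of -0.34 ± 0.31 (SE with an adjusted p of 0.46) and -0.031 ± 0.31 (SE with an adjusted p of 0.95). Sgce, the epsilon-sarcoglycan gene that starts beside Peg10, had the same early rise and then fell. It was at 5.34 and 5.205 CPM on Day 0, 26.9 and 29.5 on Day 2 and 17.5 and 17.6 on Day 4 in shSC. It was at 6.34 and 5.69 CPM on Day 0, 40.5 and 26.7 on Day 2 and 17.2 and 18.8 on Day 4 in shCTSL. Its Day 4 against Day 2 values were -0.69 ± 0.18 (SE with an adjusted p of 0.016) and -0.90 ± 0.18 (SE with an adjusted p of 0.0044). Ppp1r9a (neurabin), in contrast, was called in no comparison between days and kept within 51.1 and 83.9 CPM over the 12 libraries.

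Plagl1, a zinc finger transcription factor of chromosome 10 known to bind and regulate other imprinted genes, rose mainly between Day 2 and Day 4. It was at 5.41 and 4.83 CPM on Day 0, 23.8 and 25.7 on Day 2 and 188 and 204 on Day 4 in shSC. It was at 10.1 and 7.58 CPM on Day 0, 18.4 and 21.9 on Day 2 and 115 and 87.4 on Day 4 in shCTSL. The 3 days did not overlap in either line. From Day 2 to Day 4 its log2 fold change was 2.99 ± 0.18 (SE with an adjusted p of 3.0e-06) in shSC and 2.33 ± 0.17 (SE with an adjusted p of 1.3e-05) in shCTSL, the largest of all members over this interval in shSC. Mest, which encodes an enzyme of the alpha/beta hydrolase family, rose by Day 2. Its values were 230.1 and 214 CPM on Day 0, 951 and 969 on Day 2 and 1047 and 982 on Day 4 in shSC. They were 176 and 182 CPM on Day 0, 385 and 634 on Day 2 and 714 and 609.8 on Day 4 in shCTSL. The change to Day 4 was 2.19 ± 0.20 (SE with an adjusted p of 4.7e-06) in shSC and 1.89 ± 0.20 (SE with an adjusted p of 1.4e-05) in shCTSL. Copg2, its maternal neighbour and a subunit of the COPI coat, was called in no comparison between days and kept within 80.5 and 106 CPM. Mest and Copg2 overlap at their ends by 904 exonic bases on opposite strands (23% and 20.2% of their lengths), so reads there may not be told apart.

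Grb10 and Ddc, neighbours on chromosome 11 (mm9 chr11:11830511-11938686 and chr11:11714104-11798047), followed different courses. Grb10 encodes an adaptor that dampens insulin and IGF receptor signalling and is maternal in most tissues but paternal in neurons. It was at 213 and 212 CPM on Day 0, 224 and 213 on Day 2 and 147 and 152 on Day 4 in shSC. It was at 127 and 129.9 CPM on Day 0, 90.9 and 158 on Day 2 and 74.05 and 70.3 on Day 4 in shCTSL. The Day 4 libraries were the lowest in both lines, and the Day 4 against Day 0 value was -0.51 ± 0.20 (SE with an adjusted p of 0.041) in shSC, short of the fold threshold, and -0.83 ± 0.20 (SE with an adjusted p of 0.0041) in shCTSL. Ddc, the decarboxylase that makes dopamine and serotonin, peaked on Day 2. It was at 20.97 and 20.6 CPM on Day 0, 62.6 and 66.8 on Day 2 and 18.3 and 21.8 on Day 4 in shSC. It was at 25.7 and 25.9 CPM on Day 0, 73.8 and 61.3 on Day 2 and 35.8 and 41.9 on Day 4 in shCTSL. It rose to Day 2 by 1.64 ± 0.14 (SE with an adjusted p of 4.4e-06) in shSC and by 1.39 ± 0.14 (SE with an adjusted p of 1.3e-05) in shCTSL, then fell, with log2 fold changes of -1.69 ± 0.14 (SE with an adjusted p of 2.2e-05) in shSC and -0.80 ± 0.13 (SE with an adjusted p of 0.0017) in shCTSL. In shSC the Day 4 libraries were back among those of Day 0, whereas in shCTSL both lay above Day 0.

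The Snrpn domain on chromosome 7 is the Prader-Willi and Angelman region of humans. In it the paternal genes Ndn and Magel2 rose to Day 4 and Ube3a was lower on Day 2 in both lines. Mkrn3 was called in 1 line only and Peg12 in neither. Ndn (necdin, a MAGE family protein that restrains proliferation) was at 12.6 and 12.7 CPM on Day 0, 67.95 and 68.9 on Day 2 and 76.5 and 80.7 on Day 4 in shSC. It was at 16.6 and 14.7 CPM on Day 0, 93.2 and 73.1 on Day 2 and 83.2 and 92.04 on Day 4 in shCTSL. Its Day 4 against Day 0 values were 2.63 ± 0.14 (SE with an adjusted p of 1.3e-07) and 2.48 ± 0.14 (SE with an adjusted p of 2.0e-07), and Day 2 and Day 4 lay far above Day 0. Magel2, its MAGE family relative, was at 2.52 and 2.73 CPM on Day 0, 22.9 and 25.3 on Day 2 and 14.7 and 16.1 on Day 4 in shSC. It was at 1.86 and 2.32 CPM on Day 0, 11.4 and 14.8 on Day 2 and 16.9 and 14.7 on Day 4 in shCTSL. It rose to Day 4 by 2.55 ± 0.19 (SE with an adjusted p of 1.2e-06) and by 2.93 ± 0.20 (SE with an adjusted p of 7.5e-07), and in shSC it was already past its peak, with a log2 fold change from Day 2 of -0.65 ± 0.16 (SE with an adjusted p of 0.011). Mkrn3, a RING finger protein, stood at 10.7 and 11.7 CPM on Day 0, 14.1 and 12.5 on Day 2 and 17.5 and 18.03 on Day 4 in shSC. In shCTSL it was at 14.2 and 12.3 CPM on Day 0, 17.4 and 15.4 on Day 2 and 20.9 and 17.7 on Day 4. It was called higher on Day 4 than on Day 0 in shSC, by 0.66 ± 0.15 (SE with an adjusted p of 0.0025).

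Ube3a, the ubiquitin ligase gene that is maternal in neurons and uses both alleles in most other cells, was at 203 and 205 CPM on Day 0, 109.5 and 116 on Day 2 and 159 and 138 on Day 4 in shSC. It was at 185 and 228 CPM on Day 0, 86.95 and 100.3 on Day 2 and 145 and 120.2 on Day 4 in shCTSL. It fell to Day 2, with log2 fold changes of -0.85 ± 0.14 (SE with an adjusted p of 4.0e-04) in shSC and -1.14 ± 0.14 (SE with an adjusted p of 5.9e-05) in shCTSL and no overlap between the days. The Day 4 libraries of Ube3a lay above those of Day 2 in each line, a change that was not called. Against Day 0, Ube3a on Day 4 was called lower in shCTSL alone. Peg12 was at 4.803 and 5.64 CPM on Day 0, 5.08 and 5.25 on Day 2 and 5.83 and 5.55 on Day 4 in shSC. It was at 5.45 and 4.95 CPM on Day 0, 4.37 and 3.83 on Day 2 and 5.52 and 5.805 on Day 4 in shCTSL, and it was called in no comparison. Snrpn had 0 to 7 reads per library, or 0.457 and 0.186 CPM on Day 0, 0.133 and 0.306 on Day 2 and 0.0884 and 0.0693 on Day 4 in shSC. In shCTSL it was at 0 and 0.421 CPM on Day 0, 0.0615 and 0.128 on Day 2 and 0.0541 and 0.0492 on Day 4. Snurf, which is made from the same transcript as Snrpn, had 0 reads in all 12 libraries, while Snhg14, the long noncoding RNA that runs on from it, had 772 to 1754. Reads shared by Snrpn and Snurf may have been assigned to neither gene, so the Snrpn value is uncertain.

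Further members lie at loci of their own. Gnas, which encodes the stimulatory G protein alpha subunit along with imprinted transcripts from upstream promoters, was at 219 and 228 CPM on Day 0, 588 and 603 on Day 2 and 904 and 919.9 on Day 4 in shSC. It was at 259.8 and 239 CPM on Day 0, 599 and 614 on Day 2 and 892 and 933 on Day 4 in shCTSL. It rose at every step, by 2.03 ± 0.093 (SE with an adjusted p of 5.1e-08) to Day 4 in shSC and by 1.87 ± 0.093 (SE with an adjusted p of 8.8e-08) in shCTSL, and its imprinted and unimprinted transcripts were not told apart. Nnat, which encodes the small membrane protein neuronatin, was at 23.2 and 24.04 CPM on Day 0, 104 and 105 on Day 2 and 114 and 139.9 on Day 4 in shSC. It was at 27.5 and 24.9 CPM on Day 0, 179.6 and 117 on Day 2 and 158 and 180.1 on Day 4 in shCTSL. All EB libraries lay above all mESC libraries, and the change to Day 4 was 2.42 ± 0.20 (SE with an adjusted p of 2.2e-06) and 2.69 ± 0.20 (SE with an adjusted p of 1.2e-06). H13, the signal peptide peptidase gene, was at 39.95 and 41.7 CPM on Day 0, 69.7 and 69.6 on Day 2 and 84.6 and 74.9 on Day 4 in shSC. It was at 41.8 and 39.9 CPM on Day 0, 76.6 and 67.8 on Day 2 and 75.02 and 75.8 on Day 4 in shCTSL, and it rose to Day 4 by 0.97 ± 0.11 (SE with an adjusted p of 2.1e-05) and by 0.88 ± 0.11 (SE with an adjusted p of 4.4e-05).

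Slc38a4, a transporter of neutral amino acids, was at 356 and 355 CPM on Day 0, 455 and 439 on Day 2 and 696 and 566 on Day 4 in shSC. It was at 306 and 307 CPM on Day 0, 225 and 377 on Day 2 and 512 and 468 on Day 4 in shCTSL. Its change to Day 4 was 0.83 ± 0.20 (SE with an adjusted p of 0.0040) and 0.68 ± 0.20 (SE with an adjusted p of 0.012). Nap1l5, a relative of the nucleosome assembly proteins, was low, with 0.6099 and 0.867 CPM on Day 0, 4.12 and 4.51 on Day 2 and 3.76 and 3.12 on Day 4 in shSC. In shCTSL it was at 0.522 and 0.737 CPM on Day 0, 6.58 and 5.66 on Day 2 and 3.46 and 3.94 on Day 4. All its EB libraries lay above its mESC libraries, with 2.200 ± 0.26 (SE with an adjusted p of 3.5e-05) and 2.58 ± 0.29 (SE with an adjusted p of 2.2e-05) to Day 4. Impact, an inhibitor of the stress kinase GCN2, was at 233 and 224 CPM on Day 0, 224 and 233 on Day 2 and 367 and 317 on Day 4 in shSC. It was at 159 and 178 CPM on Day 0, 108 and 156 on Day 2 and 233 and 208 on Day 4 in shCTSL. Its change of 0.58 ± 0.16 (SE with an adjusted p of 0.0085) to Day 4 in shSC lay just under the fold threshold, and it was called from Day 2 to Day 4 in shCTSL, at 0.74 ± 0.16 (SE with an adjusted p of 0.0070). Zrsr1, a gene related to the splicing factor U2AF35, was called in no comparison between days and kept within 38.2 and 60.7 CPM. Rasgrf1, a RAS exchange factor, had 0 to 4 reads per library.

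The members that moved most in both lines were also read at the sequence level. The RefSeq table of promoters (GRCm38.p6, 250 bases before to 50 bases after each transcript start) held 32 of the 38 members and gave no entry for H19. Shown are the 3 risers and the 2 fallers with the largest log2 fold changes in shSC among those it held, with CG dinucleotides, the sites of DNA methylation, in capitals, and in Igf2 also the match to TGCCGC, the motif of the imprint-keeping factor ZFP57. Igf2 had 4 listed promoters with 2 to 24 CG dinucleotides, and the one that held the motif is shown. Asb4 had 2 listed promoters, with 6 and 8 CG dinucleotides, and the first is shown.
Asb4, chr6:5383136-5383435, plus strand: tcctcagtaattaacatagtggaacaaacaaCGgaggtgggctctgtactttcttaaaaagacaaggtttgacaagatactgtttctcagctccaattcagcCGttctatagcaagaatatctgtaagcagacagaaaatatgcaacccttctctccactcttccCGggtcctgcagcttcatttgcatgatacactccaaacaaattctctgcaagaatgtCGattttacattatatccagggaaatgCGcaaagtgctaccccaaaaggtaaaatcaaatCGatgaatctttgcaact
Airn, chr17:12741061-12741360, plus strand: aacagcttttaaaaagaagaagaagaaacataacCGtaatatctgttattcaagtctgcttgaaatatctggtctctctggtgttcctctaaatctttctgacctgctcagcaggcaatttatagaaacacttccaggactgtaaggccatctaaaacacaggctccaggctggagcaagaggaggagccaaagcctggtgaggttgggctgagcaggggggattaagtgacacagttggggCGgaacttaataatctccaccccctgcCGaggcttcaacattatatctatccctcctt
Igf2, chr7:142661222-142661521, minus strand: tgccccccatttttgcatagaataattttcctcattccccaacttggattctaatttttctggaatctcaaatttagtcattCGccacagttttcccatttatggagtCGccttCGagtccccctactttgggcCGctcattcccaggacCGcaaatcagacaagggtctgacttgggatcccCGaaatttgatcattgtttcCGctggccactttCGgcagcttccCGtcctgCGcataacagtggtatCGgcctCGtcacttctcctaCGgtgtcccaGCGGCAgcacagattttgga
Phlda2, chr7:143502475-143502774, minus strand: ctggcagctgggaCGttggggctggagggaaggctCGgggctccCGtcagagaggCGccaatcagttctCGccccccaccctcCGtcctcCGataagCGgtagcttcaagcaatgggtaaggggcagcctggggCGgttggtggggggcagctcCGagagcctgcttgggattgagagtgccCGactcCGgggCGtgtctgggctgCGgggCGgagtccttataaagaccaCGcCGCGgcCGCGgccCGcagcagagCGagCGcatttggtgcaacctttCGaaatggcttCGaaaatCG
Ascl2, chr7:142969215-142969514, minus strand: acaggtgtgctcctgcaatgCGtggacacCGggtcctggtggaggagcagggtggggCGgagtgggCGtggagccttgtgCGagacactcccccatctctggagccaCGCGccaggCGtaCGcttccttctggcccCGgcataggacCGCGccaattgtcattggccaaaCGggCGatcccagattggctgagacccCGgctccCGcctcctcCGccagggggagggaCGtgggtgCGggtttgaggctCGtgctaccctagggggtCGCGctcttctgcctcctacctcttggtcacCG
The printed promoters held 6 CG dinucleotides for Asb4, 3 for Airn, 14 for Igf2, 26 for Phlda2 and 23 for Ascl2, where the median of the 32851 promoters in the table was 7 with quartiles of 3 and 20. These counts do not set risers apart from fallers, since the promoters of other members that rose held as many, with 26 for Plagl1, 34 for Igf2r and up to 40 for Gnas. TGCCGC on either strand stood in 11.6% of all promoters in the table and in 10 of the 49 promoters listed for members (20.4%). These 10 belong to 9 members. The motif itself holds a CG, and member promoters had a median of 14 CG dinucleotides against 7 over all promoters. The part of CG content in the motif's share was not tested. A match is a description of these letters only, and the reads do not tell which of several promoters was used.

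Genes that act on imprints were measured beside the members. Of 17 tested genes of a list of 18 imprint regulators, 3 rose and 11 fell from Day 0 to Day 4 in shSC, and 2 rose and 11 fell in shCTSL. Over all genes tested 32.1% rose and 28.7% fell in shSC, and 32.3% and 27.6% in shCTSL. The list does not hold only keepers of imprints, since Tet1, Tet2 and Tet3, which help to remove methylation, are in it. Tet1 fell (log2 fold change -3.94 in shSC and -4.08 in shCTSL), Tet2 fell (-1.91 and -2.18) and Tet3 rose (3.05 and 3.03). Zfp57, which holds methylation at imprinted regions, was at 756 and 790.4 CPM in shSC on Day 0 and at 122 and 109.6 CPM on Day 4, and at 813 and 866 against 104 and 107 CPM in shCTSL. Its partner Trim28 went from 3881 and 3981 to 1302 and 1319.9 CPM in shSC and from 4081 and 3899 to 1325 and 1304 CPM in shCTSL. The maintenance methylase Dnmt1 went from 695 and 693 to 320.5 and 342 CPM in shSC, and its cofactor Uhrf1 from 457 and 478 to 94.8 and 113 CPM. In shCTSL Dnmt1 went from 632 and 641 to 262 and 258 CPM and Uhrf1 from 426 and 437 to 87.3 and 88.2 CPM. Of the methylases that set new methylation, Dnmt3b fell (log2 fold change -3.25 in shSC and -3.06 in shCTSL), their cofactor Dnmt3l fell (-4.48 and -4.400) and Dnmt3a rose (0.70 and 0.68). Dppa3, which protects imprints in the early embryo, was at 11.7 and 10.2 CPM on Day 0 and 8.31 and 8.25 CPM on Day 4 in shSC, and was not called. Methylation was not measured in these data, and no part of these regulators in the members' changes was tested.

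Of 39 other imprinted genes or neighbours of imprinted genes, 38 were in the table and 28 were tested. On Day 4 against Day 0, 11 were higher and 9 lower in shSC, and 9 were higher and 10 lower in shCTSL, with a median log2 fold change of 0.30 and 0.18. Over all genes tested 32.1% were higher and 28.7% lower in shSC, and 32.3% and 27.6% in shCTSL. The cell type markers moved over the same days. All 6 pluripotent markers fell from Day 0 to Day 4 in both lines, and their summed level went from 5338 and 5509 to 306 and 266 CPM in shSC and from 5085 and 5008 to 232 and 275 CPM in shCTSL. The 6 retinoic acid response markers all rose, from 8.12 to 9.61 CPM in the mESC libraries to 1308 to 1500.1 CPM in the Day 4 libraries. Of 9 endoderm markers 8 rose in shSC and 9 in shCTSL, and their sum went from 10.2 and 10.7 to 503 and 503 CPM in shSC and from 9.996 and 11.5 to 574 and 531 CPM in shCTSL, with Ttr at 0 reads on Day 0 in both lines and Afp in shSC. Of 5 mesoderm markers tested 3 rose and 1 fell in shSC, with sums of 6.86 and 5.45 CPM on Day 0 and 182 and 193 CPM on Day 4, and 3 rose and 2 fell in shCTSL, with 6.34 and 6.21 against 173 and 143 CPM. Of 5 neural markers 3 rose and 1 fell in shSC and 4 rose and 1 fell in shCTSL, while their sum went the other way, from 231 and 245 to 143 and 156 CPM in shSC and from 214 and 220.5 to 126 and 137 CPM in shCTSL. Of 5 trophoblast markers tested 5 rose in shSC and 4 in shCTSL, with sums of 7.39 to 37.4 CPM. Of 5 fibroblast markers tested 4 rose and 1 fell in each line, with sums of 6.53 to 68.03 CPM, and Lum was at 0 reads on Day 0. On Day 2 the mesoderm sum was lower in shCTSL, at 47.9 and 90.3 CPM against 129 and 129.7 CPM. None of the 5 mesoderm markers tested was called between the lines on that day, with a median log2 fold change of -0.13. The sum also rests on the shCTSL Day 2 libraries that stood apart. Dcn stands both among the fibroblast markers and among the other imprinted genes, and Hand1 among the mesoderm and the trophoblast markers. The part of cell composition in the members' changes was not tested.

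Between the lines far fewer members were called than between days, and how many members were called depended on the shCTSL Day 2 libraries. With all 12 libraries edgeR called 0 of 36 members on Day 0 (0.0386% of all genes). DESeq2 also called 0 members (0.309% of all genes). On Day 2 edgeR called 1 member, Igf2, which was lower (0.0644% of all genes were called, 0.0579% lower), and DESeq2 called 6 (0.805% of all genes). On Day 4 edgeR called 0 members (0.0129% of all genes), and DESeq2 called 4 (0.85% of all genes). In the mean difference over the 3 days edgeR called 3 members lower, Grb10, Usp29 and Impact (0.18% of all genes), and DESeq2 called 4 (0.824% of all genes). No member was called on Day 2 or over the days by edgeR when any 1 of the 10 libraries other than shCTSL Day 2 was left out. Without both shCTSL Day 2 libraries edgeR called 3 members on Day 0 (1.37% of all genes) and 10 on Day 4 (5.89% of all genes), 3 of them higher and 7 lower (2.94% and 2.95% of all genes).

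Beside the tests, the libraries of the lines were compared by order. On Day 4 shCTSL had both libraries below both shSC libraries for 15 members and above them for 7, as it did for 31.5% and 30% of all genes tested. On all 3 days it lay below for 7 members, Peg3, Usp29, Zim1, Mest, Grb10, Impact and Slc38a4 (4.6% of all genes), and above for 3, Cd81, Ndn and Nnat (2.61% of all genes). The line difference moved with transcript length over all genes. Its median on Day 4 went from 0.27 on the log2 scale for genes under 1 kb to -0.26 for genes over 8 kb, and on Day 0 from 0.019 to -0.12. A fit with offsets that take out each library's trend with exonic length, added after seeing the data, is therefore given beside the results. The part of transcript length in each difference was not tested further.

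**Figure D3:**
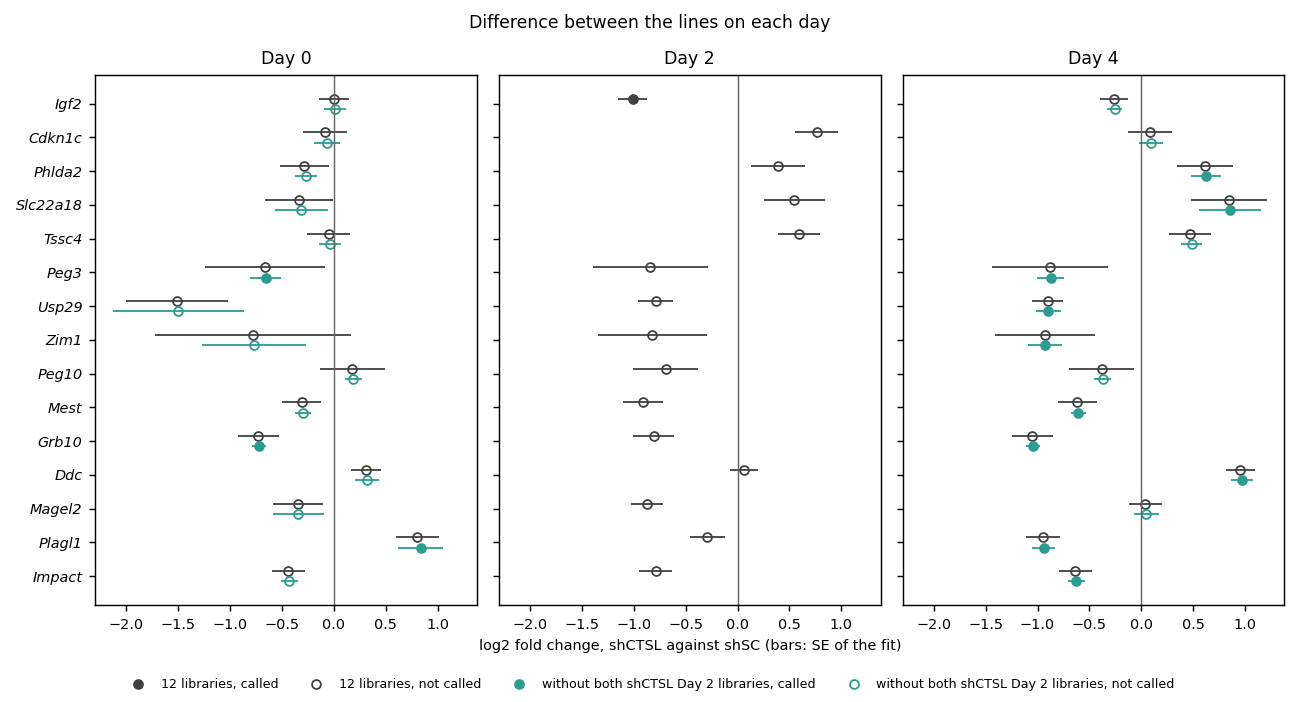
Log2 fold change of shCTSL against shSC (x axis) on Day 0, 2 and 4 for the 15 members named between the lines, from the fit of 12 libraries (grey) and without both shCTSL Day 2 libraries (green), with bars of 1 SE and filled points for called differences. Peg3, Usp29, Zim1 and Grb10 lie to the left of 0 on all 3 days, and Plagl1 crosses from right to left. Leaving out the libraries narrows the bars of Peg3, Zim1 and Grb10, but not those of Usp29 and Plagl1 on Day 0.

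Grb10 had the lowest adjusted p of the members between the lines in the fit of 12 libraries. Its libraries in shCTSL lay below those in shSC on each day, at 127 and 129.9 against 213 and 212 CPM on Day 0 and at 74.05 and 70.3 against 147 and 152 CPM on Day 4. The mean difference over the days was -0.86 ± 0.12 (SE with an adjusted p of 0.020) on the log2 scale. With 12 libraries it was -0.73 ± 0.20 (SE with an adjusted p of 0.36) on Day 0 and -1.05 ± 0.20 (SE with an adjusted p of 0.15) on Day 4, neither of them called. Without both shCTSL Day 2 libraries it was -0.72 ± 0.067 (SE with an adjusted p of 2.0e-05) on Day 0 and -1.04 ± 0.068 (SE with an adjusted p of 9.5e-07) on Day 4, and with length offsets as well -0.62 ± 0.065 (SE with an adjusted p of 2.1e-05) and -0.85 ± 0.066 (SE with an adjusted p of 1.0e-06). Grb10 has 9164 exonic bases. Ddc beside it went the other way on Day 4, with 35.8 and 41.9 CPM in shCTSL and 18.3 and 21.8 CPM in shSC. Its difference was 0.96 ± 0.14 (SE with an adjusted p of 0.083) with 12 libraries, 0.97 ± 0.11 (SE with an adjusted p of 6.9e-05) without the shCTSL Day 2 libraries and 0.99 ± 0.10 (SE with an adjusted p of 2.4e-05) with length offsets as well. On Day 2 the lines overlapped for Ddc, at 73.8 and 61.3 and 62.6 and 66.8 CPM.

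The Peg3 domain was lower in shCTSL in all libraries of each day, and all 3 members were called on Day 4 once the shCTSL Day 2 libraries were left out. On Day 4 Peg3 was at 1624 and 1096 CPM in shCTSL against 2751 and 2264 CPM in shSC, with a difference of -0.88 ± 0.56 (SE with an adjusted p of 0.50) in the fit of 12 libraries, -0.87 ± 0.13 (SE with an adjusted p of 6.9e-04) without the shCTSL Day 2 libraries and -0.63 ± 0.092 (SE with an adjusted p of 3.2e-04) with length offsets as well. Peg3 has the longest exonic length of the members with 13314 bases. Usp29, with 2610 bases, was at 11.9 and 12.7 against 23.996 and 21.98 CPM. Its mean difference over the days was -1.07 ± 0.18 (SE with an adjusted p of 0.045), and on Day 4 it was -0.90 ± 0.15 (SE with an adjusted p of 0.090) with 12 libraries, -0.90 ± 0.12 (SE with an adjusted p of 3.8e-04) without the shCTSL Day 2 libraries and -0.99 ± 0.12 (SE with an adjusted p of 7.1e-05) with length offsets as well. Zim1 stood at 22.03 and 14.1 against 38.9 and 29.8 CPM on Day 4, where its difference was -0.93 ± 0.48 (SE with an adjusted p of 0.45) with 12 libraries and -0.93 ± 0.16 (SE with an adjusted p of 0.0014) without the shCTSL Day 2 libraries. On Day 0 Peg3 was at -0.66 ± 0.58 (SE with an adjusted p of 0.91) with 12 libraries and was called without the shCTSL Day 2 libraries, at -0.66 ± 0.15 (SE with an adjusted p of 0.024). With length offsets as well this call was lost, since the value of -0.51 ± 0.11 (SE with an adjusted p of 0.011) is under the fold threshold. Usp29 and Zim1 were not called on Day 0, with values of -1.502 ± 0.63 (SE with an adjusted p of 0.22) and -0.77 ± 0.50 (SE with an adjusted p of 0.43) without these libraries and -1.51 ± 0.49 (SE with an adjusted p of 0.64) and -0.78 ± 0.94 (SE with an adjusted p of 0.95) with them, and Usp29 had 2 reads in each shCTSL library.

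Plagl1 changed order between the lines. In mESCs it was higher in shCTSL, at 10.1 and 7.58 against 5.41 and 4.83 CPM, and in EBs of Day 4 it was lower, at 115 and 87.4 against 188 and 204 CPM, without overlap on either day. With 12 libraries the difference was 0.81 ± 0.20 (SE with an adjusted p of 0.33) on Day 0 and -0.95 ± 0.16 (SE with an adjusted p of 0.092) on Day 4, neither of them called. It was 0.84 ± 0.21 (SE with an adjusted p of 0.038) on Day 0 and -0.94 ± 0.11 (SE with an adjusted p of 9.8e-05) on Day 4 without the shCTSL Day 2 libraries. The difference between the lines in the change from Day 0 to Day 4 was -1.76 ± 0.26 (SE with an adjusted p of 0.20) with 12 libraries, -1.78 ± 0.24 (SE with an adjusted p of 0.0026) without the shCTSL Day 2 libraries and -1.78 ± 0.31 (SE with an adjusted p of 4.2e-05) in DESeq2 with 12 libraries. In this interaction edgeR called 0 of the 36 members with 12 libraries (0.00644% of all genes), and DESeq2 called 1, Plagl1 (0.18% of all genes). Without the shCTSL Day 2 libraries edgeR called 3 (1.67% of all genes), which were Plagl1, Ddc and Phlda2. The values were 0.65 ± 0.16 (SE with an adjusted p of 0.042) for Ddc and 0.89 ± 0.18 (SE with an adjusted p of 0.021) for Phlda2.

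Igf2 was the member called between the lines on Day 2, at 130.2 and 173 CPM in shCTSL against 303 and 309 CPM in shSC, a difference of -1.01 ± 0.14 (SE with an adjusted p of 0.034). Its libraries overlapped on Day 0, and on Day 4 they lay at 1041 and 1009 against 1142 and 1316 CPM with a difference of -0.26 ± 0.13 (SE with an adjusted p of 0.45) with 12 libraries and -0.25 ± 0.073 (SE with an adjusted p of 0.019) without the shCTSL Day 2 libraries, under the fold threshold in both. H19 beside it stood at 659.7 and 619 against 844 and 919 CPM on Day 2, a difference of -0.46 ± 0.10 (SE with an adjusted p of 0.20) that was not called. DESeq2 called Igf2, Usp29, Mest, Grb10, Magel2 and Impact lower on Day 2, with -1.04 ± 0.17 (SE with an adjusted p of 8.7e-07) for Igf2. Magel2 was at 11.4 and 14.8 against 22.9 and 25.3 CPM, with -0.90 ± 0.20 (SE with an adjusted p of 0.0018). Mest was at 385 and 634 against 951 and 969 CPM, with -0.94 ± 0.22 (SE with an adjusted p of 0.0057). On Day 2 Cdkn1c and Tssc4 had both shCTSL libraries above both shSC libraries, with differences of 0.76 ± 0.21 (SE with an adjusted p of 0.22) and 0.60 ± 0.20 (SE with an adjusted p of 0.22). Peg10 had both below, with a difference of -0.69 ± 0.31 (SE with an adjusted p of 0.26), and none of the 3 was called. These Day 2 values rest on the libraries that stood apart, and 19 members were called on Day 2 without shCTSL Day 2 replicate 2 (31.6% of all genes) and 3 without replicate 1 (0.604% of all genes).

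Mest and Impact were lower in shCTSL on each day. On Day 4 Mest was at 714 and 609.8 against 1047 and 982 CPM, a difference of -0.62 ± 0.19 (SE with an adjusted p of 0.29) with 12 libraries and -0.61 ± 0.075 (SE with an adjusted p of 1.6e-04) without the shCTSL Day 2 libraries. Impact was at 233 and 208 against 367 and 317 CPM, a difference of -0.64 ± 0.16 (SE with an adjusted p of 0.22) with 12 libraries and -0.63 ± 0.08 (SE with an adjusted p of 2.1e-04) without them. Its mean over the days with 12 libraries was -0.62 ± 0.093 (SE with an adjusted p of 0.031). Copg2, which overlaps Mest, was at 85.6 and 87.96 against 94.9 and 98.1 CPM. In the Kcnq1 domain Phlda2 and Slc22a18 had both shCTSL libraries above both shSC libraries on Day 4. Phlda2 was at 8.77 and 10.8 against 6.54 and 6.24 CPM, a difference of 0.61 ± 0.27 (SE with an adjusted p of 0.40) with 12 libraries and 0.63 ± 0.15 (SE with an adjusted p of 0.0072) without the shCTSL Day 2 libraries. Slc22a18 was at 1.73 and 3.05 against 1.503 and 1.11 CPM, a difference of 0.85 ± 0.36 (SE with an adjusted p of 0.40) and 0.85 ± 0.30 (SE with an adjusted p of 0.045) in the same fits. Both have short transcripts (757 and 1718 exonic bases), and with length offsets as well the values were 0.34 ± 0.12 (SE with an adjusted p of 0.059) and 0.67 ± 0.28 (SE with an adjusted p of 0.10), neither of them called.

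**Figure D4:**
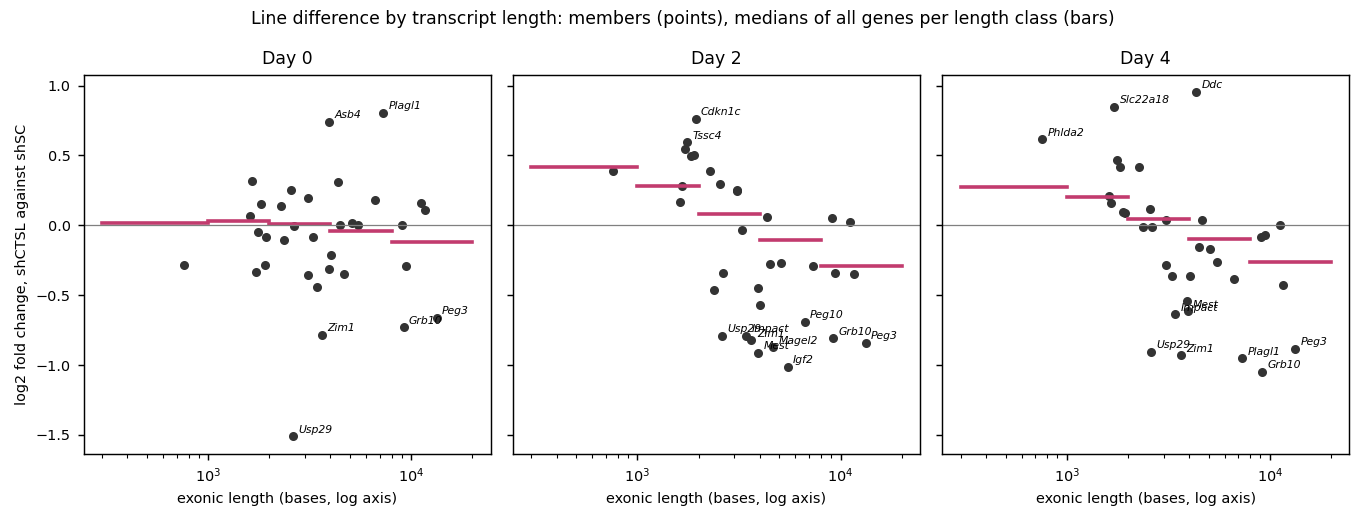
Log2 fold change of shCTSL against shSC (y axis) by exonic length in bases (x axis, log axis) for 34 members (points, named where the size is at least 0.585) and the median of all genes in each length class (bars). On Day 4 the class medians fall from 0.27 to -0.26, Usp29, Zim1, Grb10, Plagl1 and Peg3 lie below the bar of their class, and Ddc, Slc22a18 and Phlda2 lie above it.

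With length offsets and without the shCTSL Day 2 libraries, 8 members were called on Day 4 (7 lower, namely Peg3, Usp29, Zim1, Mest, Grb10, Plagl1 and Impact, and Ddc higher), 2 on Day 0 (Grb10 and Plagl1) and 3 in the interaction (Phlda2, Ddc and Plagl1). The shares of all genes called by this fit were 4.58%, 1.34% and 1.92%. Over all 36 members the median difference between the lines was -0.066 on Day 0, -0.27 on Day 2 and -0.076 on Day 4, beside -0.017, 0.017 and -0.0045 over all genes tested.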

How the data were processed

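Poly(A) RNA of 12 libraries (2 lines, 3 days, 2 replicates) was sequenced from directional libraries. The authors aligned reads to mm9 and deposited whole-number read counts per gene, and the submitters' processing notes name FastQC 0.11.2, STAR 2.3.0e, SAMtools 0.1.19, featureCounts 1.6.2, DESeq2 1.16.1 and bedtools 2.27.1. For the strand setting of the counting the value was not given in the sources used, so overlapping genes on opposite strands may share reads. Samples were grouped by their labels, and 0 columns were left unused.

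From the counts (11171111 to 27155553 per library) genes were filtered with filterByExpr (minimum count 10), scaled by TMM and fitted to all 12 libraries with the quasi-likelihood test of edgeR 4.0.16 in R 4.3.3, with Benjamini-Hochberg adjustment over 15532 genes. Calls required an adjusted p under 0.05 and at least 1.5-fold, and 11 comparisons were made. DESeq2 1.42.0, RLE scaling, other filters and fold thresholds, the replicate number as a block and leaving out libraries were alternatives, and offsets for exonic length (lowess span 0.3) were chosen after seeing the data. The script was tested on simulated data. Members and gene lists were chosen with earlier results of these data known. Values per library are given for members called between days and for members of the Igf2-H19, Kcnq1, Igf2r-Airn, Snrpn and Peg3 domains, and tests between the lines for members called by any fit or with lines apart by at least 1.5-fold. Coordinates and exonic lengths came from GENCODE M1 (37 of 38 members matched, not Kcnq1ot1) on mm9. Promoters came from RefSeq (GRCm38.p6), and no coordinates were converted. Intervals on ratios cover counting error only.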

Additional observations from a re-analysis of the deposited data

Results flagged for a closer look

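For 3 members the change from Day 0 to Day 4 differed between the lines by the interaction test of edgeR without both shCTSL Day 2 libraries. The difference, shCTSL minus shSC on the log2 scale, was 0.89 for Phlda2 (adjusted p = 0.021), 0.65 for Ddc (adjusted p = 0.042) and -1.78 for Plagl1 (adjusted p = 0.0026). With all 12 libraries the values were 0.90 ± 0.36 (SE with an adjusted p of 0.71) for Phlda2, 0.65 ± 0.20 (SE with an adjusted p of 0.63) for Ddc and -1.76 ± 0.26 (SE with an adjusted p of 0.20) for Plagl1, none of them called by edgeR. Phlda2 fell less in shCTSL, Plagl1 rose less, and Ddc ended above its Day 0 level in shCTSL alone.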

How the results depend on the processing

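Between days the direction of the members' calls held under every alternative run, with 2670 of the alternative values on the same side of the threshold and 144 below it. Leaving out 1 library gave 21 to 24 members called for shSC Day 2 against Day 0 (23 with all), 24 to 25 for Day 4 against Day 0 (24) and 9 to 15 for Day 4 against Day 2 (13), and in shCTSL 21 to 25 (24), 23 to 25 (25) and 9 to 20 (17). The 9 came without shCTSL Day 4 replicate 1. In both lines the share of all genes called for Day 4 against Day 2 moved the same way. Among the fits without 1 library it was lowest where the fewest members were called and highest where the most were. A log2 threshold of 1.5 left 7 members for Day 4 against Day 2 in each line. The share of all genes was then 9.41% in shSC and 8.45% in shCTSL, against 23.8% and 23.4% with the main threshold. Fitting the libraries compared alone left 6 members in shCTSL (8.01% of all genes). Between the lines, leaving out 1 library gave 0 to 3 members on Day 0, 0 to 19 on Day 2, 0 to 10 on Day 4, 0 to 6 over the days and 0 to 3 in the interaction, where all 12 gave 0, 1, 0, 3 and 0. The values above 0 came without 1 of the shCTSL Day 2 libraries, when the share of all genes called rose too, to 1.33% and 1.35% on Day 0, 0.604% and 31.6% on Day 2, 5.82% and 5.83% on Day 4, 0.761% and 7.68% over the days and 1.63% and 1.69% in the interaction (without replicate 1 and 2). Without both of these libraries 3 were called on Day 0, 10 on Day 4 and 3 in the interaction (1.37%, 5.89% and 1.67% of all genes). Length offsets gave 1, 3 and 3 on Day 0, 2 and 4 (0.161%, 0.258% and 0.129% of all genes), and together with leaving out these libraries 2 on Day 0, 8 on Day 4 and 3 in the interaction (1.34%, 4.58% and 1.92%). The libraries compared alone gave 3, 0 and 9 on Day 0, 2 and 4 and 2 in the interaction (2.04%, 0%, 4.83% and 0.988%). DESeq2 gave 6 on Day 2, 4 on Day 4 and 1 in the interaction (0.805%, 0.85% and 0.18%), and no filter on low counts gave 5, 5 and 1, with 5 over the days (0.264%, 0.524%, 0.0309% and 0.815%). RLE scaling gave 0 on Day 2, and a log2 threshold of 1.5 gave 0 on Day 2 and 0 over the days. With the replicate block 0 members were called on Day 2 and 1 over the days (0% and 0.0837%). Correlations of replicate differences between groups ran from -0.47 to 0.26. They cannot settle whether samples with the same replicate number share more than that number. The block moved no other count by over 1.5 times. The cause of these changes was not tested. With 2 libraries per group and 1 line per hairpin, differences between the lines cannot be told apart from differences between cultures, and members near 0 reads are limited by depth.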
